A study of Mus musculus with 45 samples.

Results

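Fully grown oocytes (FGOs) stay arrested at meiotic prophase for as long as cyclic AMP (cAMP) is high in their cytoplasm, and 8 genes of this arrest were followed here across oocytes and two-cell embryos. They were the receptors Gpr3 and Gpr12, the adenylyl cyclases Adcy3 and Adcy9, the connexin Gja4, the phosphodiesterase Pde3a and the protein kinase A (PKA) genes Prkaca and Prkar2a, chosen by symbol from a deposited expression table of 26214 genes, in which all 8 were found. The study compared females that carried H3f3b K36M-flox/+ alone (control) with females that carried it with Gdf9-Cre (K36M), in which Cre driven by an oocyte-specific promoter lets oocytes make HA-tagged H3.3K36M, a histone that lowers lysine 36 methylation of histone H3. Both genotypes were of a hybrid C57BL/6 / 129 background. FGOs came from 3 to 4 week old females, with 5 oocytes pooled in each library and 3 libraries per genotype. Late two-cell embryos were collected 31 to 32 h after fertilization in vitro with JF-1 sperm, 1 embryo in each library. Control replicate 4 was left out, which left 7 control and 8 K36M oocyte-derived embryos. An embryo derived from a K36M oocyte may have inherited either H3f3b allele. No label ties a library to an animal, so the p-values below measure the spread between these libraries, which may be partly technical.

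In the mouse oocyte, the constitutively active receptor GPR3 signals through a stimulatory G protein to adenylyl cyclase, which makes cAMP, and cAMP keeps PKA active. Active PKA holds the cell cycle kinase CDK1 in its inhibited state, so the oocyte stays in prophase. Cyclic GMP from the surrounding granulosa cells enters through gap junctions built of connexin 37, the product of Gja4, and inhibits PDE3A, the enzyme that breaks down oocyte cAMP. When luteinizing hormone lowers cyclic GMP, PDE3A becomes active, cAMP falls and meiosis resumes.

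Values are TPM, a measure of transcript abundance in which reads are divided by gene length and every library is brought to the same total, so levels of different genes can be compared within a library. The number of genes with a TPM of at least 1 was 13476 to 14131 in control and 13218 to 13682 in K36M FGOs. It was 10774 to 15557 (median 13011) in control and 9722 to 13303 (median 11560) in K36M oocyte-derived embryos, so the embryos varied more and the K36M ones held fewer genes in the median. The edited gene H3f3b had a TPM of 265, 307 and 308 in control FGOs and of 377, 399 and 418 in K36M FGOs, but these values do not separate the mutant from the normal allele. All 10 oocyte markers (Gdf9, Zp1 to Zp3 and others) were detected in FGOs. Their summed TPM was 18268 to 18510 in control and 16474 to 17465 in K36M FGOs, so the genotypes did not overlap. Granulosa cell markers summed to 66.3 to 91.2 TPM in control and 71.4 to 89.3 TPM in K36M FGOs, with 10 of the 12 genes at a mean TPM of 1 or more in K36M and 11 in control. In embryos the granulosa markers summed to 63.4 to 159 TPM (control) and 24.8 to 152 TPM (K36M), blood markers to 0 to 15.4 TPM and 0 to 59.5 TPM and stroma markers to 4.27 to 26.9 TPM and 3.53 to 56.7 TPM. All 10 oocyte markers were lower and 8 of 9 two-cell markers (Zscan4, Usp17l and others) higher in control embryos than in control FGOs at an adjusted p under 0.05.

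In control FGOs the 8 genes spanned levels from 4.08 to 362 TPM. Gja4 was the highest at 362 ± 34.0 TPM (SD, n = 3) and stood above 96.7% of the genes whose mean TPM there was 1 or more. Pde3a followed at 195 ± 10.2 TPM, above 91.8% of those genes. Gpr3 (98.6 ± 17.96 TPM) and Prkar2a (87.7 ± 8.60 TPM) came next and did not differ beyond their spread, since their ranges overlapped. The same held for Adcy9 (32.2 ± 2.67 TPM) and Prkaca (28.5 ± 2.42 TPM). Adcy3 (7.71 ± 0.715 TPM) and Gpr12 (4.08 ± 1.30 TPM) were the lowest, and the ranges of all other neighbours in this order stood apart. The same order held in K36M FGOs, apart from the pairs with overlapping ranges, which changed places. In embryos of either genotype, each gene overlapped its neighbour in the order of means, with Prkar2a first and Gpr12, at or near 0 in every embryo, last.

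**Figure D1:**
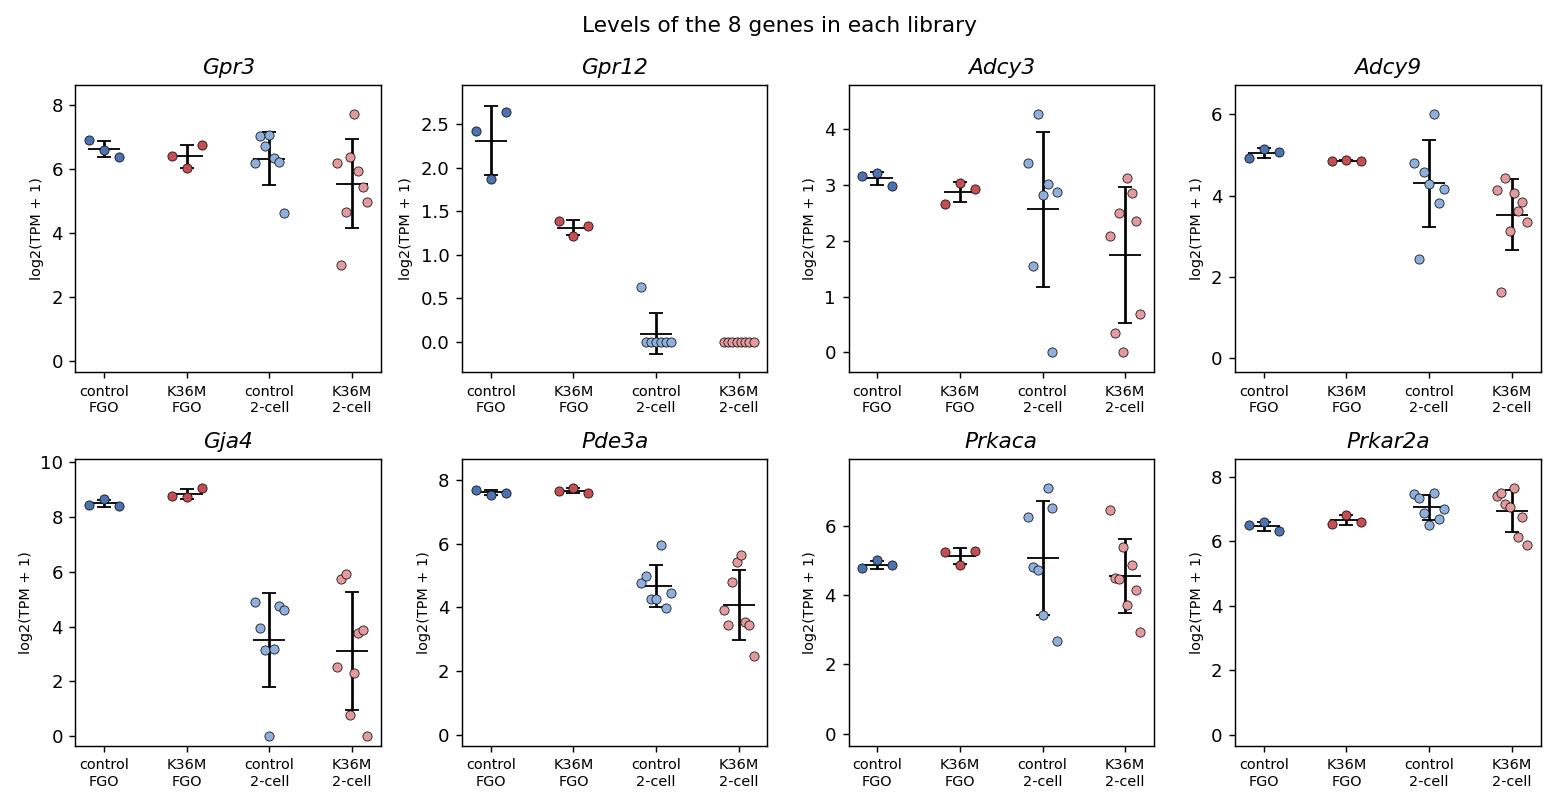
Level of each of the 8 genes as log2(TPM + 1) (vertical axis) in the 3 control FGO, 3 K36M FGO, 7 control two-cell and 8 K36M oocyte-derived two-cell libraries (horizontal axis). Points are libraries, long bars are means and error bars are the SD. Gja4 and Pde3a lie lower in every embryo than in any FGO library, and Gpr12 lies lower in K36M than in control FGOs.

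The genes lie on 7 chromosomes of GRCm38.p6, the assembly of mm10, to which the authors mapped the reads, and their RefSeq positions are as follows. Gpr3 (chr4:133209340-133212536, minus strand) and Gja4 (chr4:127311420-127314039, minus strand) share a chromosome. The others are Gpr12 (chr5:146582150-146586465, minus), Adcy3 (chr12:4133116-4213525, plus), Adcy9 (chr16:4284886-4437236, minus), Pde3a (chr6:141249269-141506862, plus), Prkaca (chr8:83972978-83996444, plus) and Prkar2a (chr9:108692143-108750444, plus). In the GENCODE annotation, Adcy3 shares 1380 of its 6246 exonic bases with Cenpo, Pde3a 741 of 12737 with Gm28523 and Gpr3 204 of 2734 with Cd164l2, each on the opposite strand. The strand setting of the authors' counting is not given in the sources used here, so reads of these stretches could have been counted for either gene. The other 5 genes share no exonic base with another gene.

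PKA also acts on transcription, by phosphorylating CREB family factors that bind the cAMP response element, whose core letters are TGACG, or CGTCA when read on the other strand. Both were searched in the 250 bases before each RefSeq start. Of the 7 genes with an entry in the RefSeq promoter table, 4 held at least 1 core. Counted by promoter this was 4 of 10 (40.0%), against 17.8% of all 32851 promoters and 25.3% of the 13625 promoters of genes whose mean TPM in control FGOs was 1 or more. The full TGACGTCA element was found in none of the 10 and in 1.55% of all promoters. The cores (capitals) are shown with up to 12 flanking bases, 5′ to 3′ on the strand of the gene, to let the surroundings be compared, and a letter match describes the sequence only.
Gpr3, chr4:133212716-133212744, first base of the core 196 bases before the start: cagagggcgccgCGTCAaggacagagagc
Gpr3, chr4:133212560-133212588, 40 bases before the start: ctgggcttctggCGTCAccaaaccggtgg
Adcy9, chr16:4420506-4420534, 24 bases before a RefSeq start that lies inside the gene: cggacccggcggTGACGtgcgcgggccgc
Gja4, chr4:127314159-127314187, 136 bases before the start: gataccggagggCGTCAgagcagagaaac
Prkaca, chr8:83972846-83972874, 120 bases before the start: gtctgcaactcgCGTCActcatccaggag
Prkaca, chr8:83972960-83972977, 6 bases before the start, where the window ends: gggctgcgggggCGTCAc

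The first comparison asked whether the cAMP genes were altered in FGOs that carried the mutant histone. No member passed an adjusted p of 0.05 in limma on log2(TPM + 1), over 13775 genes of which 0.00726% were called. That share rests on 1 gene, and without K36M replicate 1 the test called 300 genes, again with no member among them. Gpr12 was the member with the largest difference and Gja4 the one with the smallest p, and these 2 of the 8 had an unadjusted p under 0.05, against 10.5% of all genes tested. The levels of 3 members did not overlap between the genotypes (Gpr12 and Adcy9 lower, Gja4 higher in K36M), against 15.6% of all genes, so the count has a background of its own. The median log2 fold change was -0.07 over the 8 genes and 0.01 over all genes.

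Gpr3, the receptor that drives cAMP production in the oocyte, was at 82.8, 94.9 and 118 TPM in control FGOs and at 65.1, 83.4 and 106 TPM in K36M FGOs. The genotypes overlapped, and the log2 fold change was -0.23 (95% interval -0.66 to 0.20, adjusted p = 0.678 in limma). It was -0.05 without K36M replicate 2 and -0.40 without K36M replicate 3. Gpr12, a close relative of Gpr3 that also couples to cAMP production, was at 2.65, 4.37 and 5.21 TPM in control and at 1.32, 1.51 and 1.60 TPM in K36M FGOs. All 3 K36M libraries were below all 3 controls, with a log2 fold change of -1.002 ± 0.33 (SE), an unadjusted p of 0.0144 and an adjusted p of 0.396 in limma. Because Gpr12 is near 1 TPM, a fold change on the log2(TPM + 1) scale understates its ratio. Gpr6, the third receptor of this family, was at a mean TPM of 0.04 in control FGOs and at 0 in every K36M FGO library.

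Adcy3 and Adcy9 are membrane-bound adenylyl cyclases that make cAMP. Adcy3 was at 6.92, 7.92 and 8.30 TPM in control and at 5.36, 6.59 and 7.17 TPM in K36M FGOs, which overlapped (log2 fold change -0.25, 95% interval -0.78 to 0.29). Adcy9 was at 29.3, 32.8 and 34.6 TPM in control and at 27.7, 27.9 and 28.3 TPM in K36M FGOs. The Adcy9 ranges did not overlap but lay close together, with a log2 fold change of -0.19 ± 0.14 (SE) and an adjusted p of 0.636 in limma.

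For Gja4, whose connexin joins the oocyte to the granulosa cells, control FGOs held 339, 347 and 401 TPM and K36M FGOs held 426, 433 and 528 TPM. Every K36M library was above every control, and the log2 fold change was 0.35 ± 0.11 (SE), with an unadjusted p of 0.00937 and an adjusted p of 0.383 in limma. The granulosa marker sums overlapped between the genotypes, as given above, and none of the 10 markers tested had an unadjusted p under 0.05. Over all alternative settings the adjusted p of Gja4 ran from 0.106 to 0.712. The oocyte marker sum, which the most abundant genes set, was lower in K36M FGOs without overlap. Of its 10 genes, 5 were lower (Bmp15, Zp1, Zp2, Zp3 and Oosp1) and Mos was higher without overlap, against 15.6% of all genes, and 5 of the 10 had an unadjusted p under 0.05, against 10.5% of all genes. The median log2 fold change was -0.11 and none was called. The part of either marker list in these differences was not tested.

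Pde3a, the phosphodiesterase whose activity ends the arrest, had the narrowest interval of the members. Control FGOs were at 185, 194 and 205 TPM and K36M FGOs at 192, 201 and 213 TPM. They overlapped, the log2 fold change was 0.05, and its 95% interval ran from -0.14 to 0.24.

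Prkaca, a catalytic subunit of PKA, was at 26.3, 28.2 and 31.1 TPM in control and at 28.03, 37.1 and 37.9 TPM in K36M FGOs (log2 fold change 0.25, 95% interval -0.12 to 0.62). Prkar2a, a type II regulatory subunit that holds the catalytic subunits inactive until cAMP binds, was at 78.2, 89.6 and 95.1 TPM in control and at 92.1, 96.6 and 112 TPM in K36M FGOs. Its log2 fold change was 0.19 (95% interval -0.08 to 0.46). Both PKA genes overlapped between the genotypes.

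**Figure D2:**
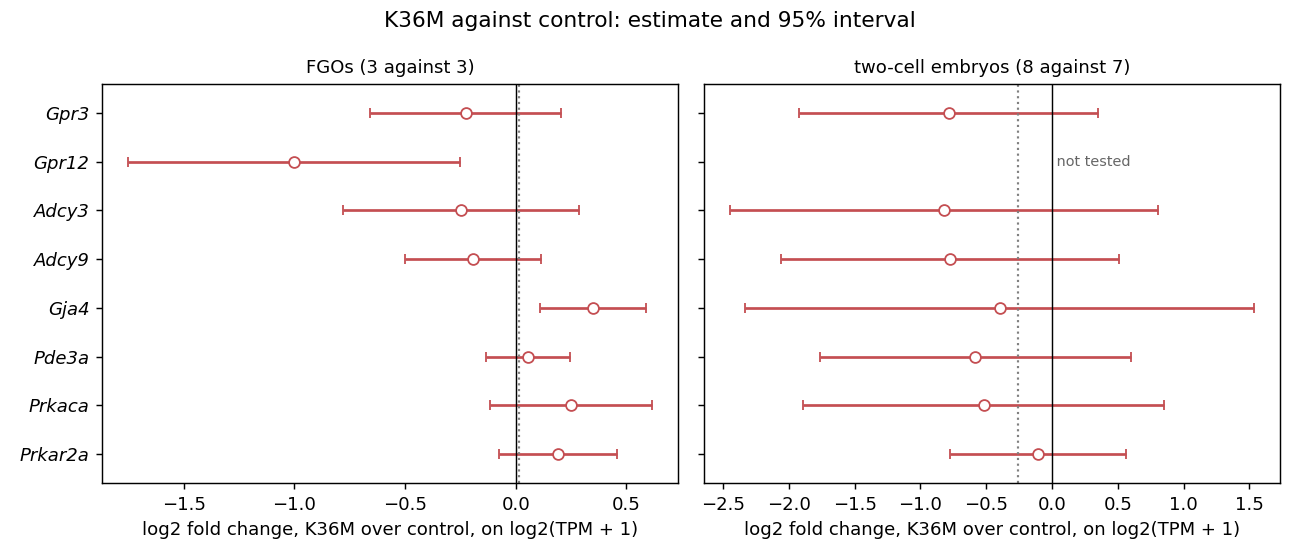
Log2 fold change of K36M over control (horizontal axis, on log2(TPM + 1)) for each gene (vertical axis) in FGOs (left) and two-cell embryos (right), which have different horizontal scales. Points are limma estimates, bars 95% intervals and dotted lines the median of all genes tested, and all points are open because no gene passed the adjusted threshold. In FGOs the intervals of Gpr12 and Gja4 lie off 0, and in embryos all 7 estimates lie below 0 with intervals that cross it.

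In two-cell embryos, the comparison asked whether embryos from K36M oocytes differed in the same genes. None of the 7 members tested passed an adjusted p of 0.05 over 17362 genes, of which 0% were called, and none had an unadjusted p under 0.05, against 7.71% of all genes. Gpr12 was not tested, since its mean TPM was under 1. All 7 estimates were lower in K36M oocyte-derived embryos, with a median log2 fold change of -0.58, but with array weights those of Gja4 (0.0475) and Prkaca (0.0168) were not, and the median over all genes tested was itself -0.26, with 36.2% of all genes higher. Both genotypes overlapped for every member, while 0.115% of all genes tested did not overlap. K36M replicates 2 and 8 had the fewest genes with a TPM of at least 1 (9722 and 9763). Without them the median of all genes was -0.16 and the 7 estimates were -0.43 to -0.02. The part of these libraries in the lower values was not tested beyond this. With all embryos kept, the 10 oocyte markers had a median log2 fold change of -0.61. None of them was called, and 3 of the 10 had an unadjusted p under 0.05 in limma, against 7.71% of all genes. The part of the oocyte markers was not tested.

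Among the receptors, Gpr3 ran from 23.9 to 134 TPM (median 80.8) in control embryos and from 7.02 to 208 TPM (median 51.5) in K36M oocyte-derived embryos. The highest and the lowest embryo were both K36M oocyte-derived, and the log2 fold change was -0.79 (95% interval -1.92 to 0.35, adjusted p = 0.725 in limma). Gpr12 was listed at 0 in 6 of 7 control embryos and at 0.544 TPM in the other, and it was at 0 in all 8 K36M oocyte-derived embryos. Adcy3 ran from 0 to 18.4 TPM (median 6.34) in control and from 0 to 7.69 TPM (median 3.69) in K36M oocyte-derived embryos, with 1 embryo of each genotype at 0. Adcy9 ran from 4.44 to 63.2 TPM (median 18.6) in control and from 2.09 to 20.5 TPM (median 12.3) in K36M oocyte-derived embryos. The log2 fold changes of the cyclases were -0.82 (95% interval -2.44 to 0.81) for Adcy3 and -0.77 (95% interval -2.06 to 0.51) for Adcy9.

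Gja4 was spread from 0 to 28.8 TPM (median 14.5) in control and from 0 to 60.4 TPM (median 8.61) in K36M oocyte-derived embryos. Its mean was higher and its median and log2 fold change (-0.40, 95% interval -2.33 to 1.54) lower in K36M oocyte-derived embryos, since K36M replicates 2 and 3 held 52.0 and 60.4 TPM. For Pde3a the range was 14.8 to 61.3 TPM (median 21.02) in control and 4.60 to 49.0 TPM (median 12.4) in K36M oocyte-derived embryos, with a log2 fold change of -0.58 (95% interval -1.76 to 0.60).

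Of the PKA genes, Prkaca ran from 5.45 to 135 TPM (median 27.01) in control and from 6.61 to 87.2 TPM (median 21.3) in K36M oocyte-derived embryos. Prkar2a was the steadiest of the 7 tested members in embryos, at 88.8 to 181 TPM (median 127) in control and 57.5 to 199 TPM (median 138) in K36M oocyte-derived embryos. Their log2 fold changes were -0.52 (95% interval -1.89 to 0.85) and -0.11 (95% interval -0.77 to 0.56). The SD of log2(TPM + 1) of the 7 tested members was 0.02 to 0.35 within the FGO groups and 0.40 to 2.14 within the embryo groups, so smaller differences could be seen in FGOs than in embryos.

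Next, the stages were compared within each genotype, to describe which of the arrest genes were still at oocyte level in late two-cell embryos. Pde3a and Gja4 fell in both genotypes, and no other tested member passed the threshold in either. In control, these were 2 of 7 members tested, both lower, where 13.2% of 17358 genes were called lower and 13.4% higher (26.6% in all). In K36M they were again 2 of 7, where 18.6% of all genes were called lower and 10.8% higher (29.3% in all). The median log2 fold change of the 7 genes was -0.55 in control and -1.13 in K36M, against 0.00 and -0.18 over all genes. Every embryo was below every FGO library for 2 of the 7 in control (Gja4 and Pde3a), against 18.2% of all genes, and for 3 of the 7 in K36M (Adcy9 as well), against 17.2%. Stage cannot be told apart here from the other ways the libraries differ, since embryo libraries hold 1 embryo and JF-1 alleles, were amplified with more PCR cycles and, by the totals the study lists, were each sequenced to fewer reads than any FGO library, which bears on low values and zeros in embryos. Nor can a loss of RNA per cell be told apart from a different number of cells, and TPM gives only the share of each library's RNA.

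Pde3a was at 185 to 205 TPM in control FGOs and at 14.8 to 61.3 TPM in control embryos, so the highest embryo was well below the lowest FGO library. Its log2 fold change was -2.94 ± 0.58 (SE, adjusted p = 0.000496 in limma) in control and -3.58 ± 0.57 (adjusted p = 3.76e-05 in limma) in K36M. Gja4 dropped further, from 339 to 401 TPM in control FGOs to at most 28.8 TPM in control embryos, and from 426 to 528 TPM in K36M FGOs to at most 60.4 TPM in K36M oocyte-derived embryos. Its log2 fold change was -4.99 ± 1.06 (SE, adjusted p = 0.00109 in limma) in control and -5.74 ± 1.04 (adjusted p = 0.00019 in limma) in K36M. The oocyte markers are lower in embryos by a median log2 fold change of -4.20 in control and -4.68 in K36M, so both genes moved the way of the oocyte markers. The Pde3a estimates were smaller in size than these medians. Those of Gja4 were larger, but with an SE of 1.06 and 1.04 they are not set apart from the medians. Neither gene was tested against the markers.

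Gpr12 did not enter the stage test, because its mean over the 21 libraries was under 1 TPM. Its lowest FGO library in either genotype (1.32 TPM) was above its highest embryo (0.544 TPM), and no fold is given against libraries at 0. Gpr3 was not called in either genotype, and its embryos spread to both sides of the FGOs. The median embryo held 80.8 TPM in control, just under the 82.8 to 118 TPM of control FGOs, and 51.5 TPM in K36M, under the 65.1 to 106 TPM of K36M FGOs. The log2 fold change was -0.30 (95% interval -1.67 to 1.06) in control and -0.86 (95% interval -2.20 to 0.48) in K36M.

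The remaining 4 members did not pass the threshold in either genotype, although with array weights Adcy9 did in both (-1.02 in control and -1.28 in K36M) and Prkar2a in control (0.52), at adjusted p of 0.0171, 0.0111 and 0.0309 in limma. Adcy9 had log2 fold changes of -0.75 (adjusted p = 0.425 in limma) in control and -1.33 (adjusted p = 0.124 in limma) in K36M, and in K36M every embryo was below every FGO library. Adcy3 had -0.55 and -1.13, with adjusted p of 0.672 and 0.339. For Prkaca the log2 fold changes were 0.20 (adjusted p = 0.892) in control and -0.57 (adjusted p = 0.627) in K36M. The control value of Prkaca turned to -0.11 with median-of-ratios scaling, so no direction is given for it. Prkar2a had positive values of 0.58 (95% interval -0.16 to 1.33) and 0.29 (95% interval -0.45 to 1.02).

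**Figure D3:**
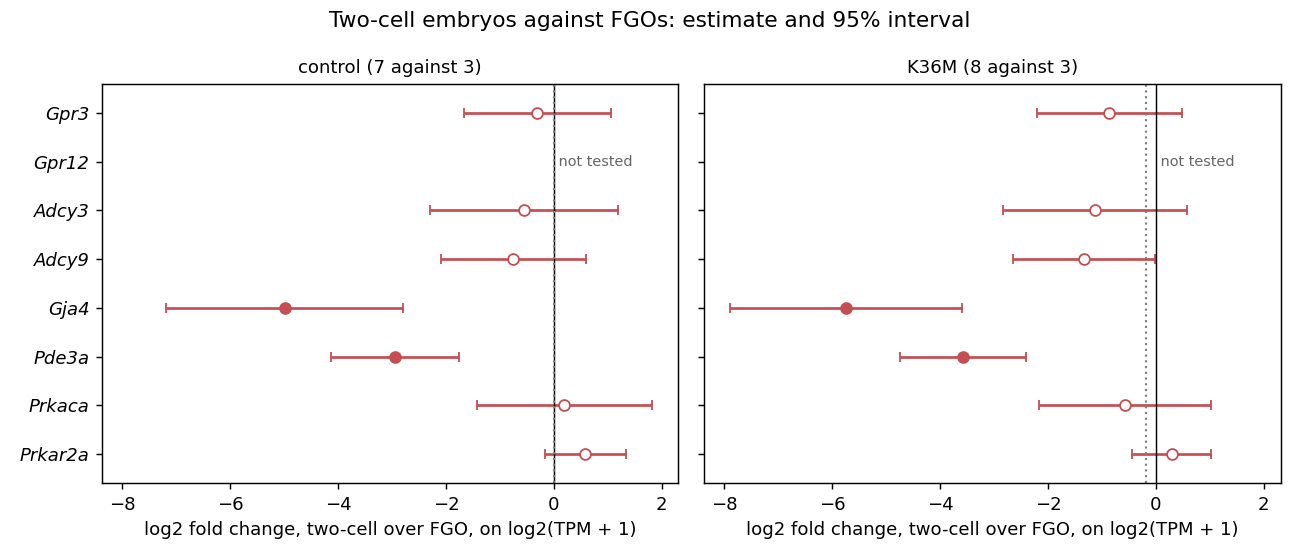
Log2 fold change of two-cell embryos over FGOs (horizontal axis, on log2(TPM + 1)) for each gene (vertical axis) in control (left) and K36M (right). Points are limma estimates (filled where the adjusted p is under 0.05), bars 95% intervals and dotted lines the median of all genes tested. Gja4 and Pde3a are filled in both panels, at -4.99 and -2.94 in control and at -5.74 and -3.58 in K36M.

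The test of whether the K36M difference was unlike in the stages gave no call among the 7 members or among all 17358 genes, where 0% passed the adjusted threshold and 1.15% had an unadjusted p under 0.05 in limma. None of the 7 had an unadjusted p under 0.05. The estimates, in which a negative value means a lower K36M difference in embryos, ran from -0.77 for Prkaca to -0.30 for Prkar2a, with a median of -0.58 against -0.27 over all genes. Their intervals were wide, for Gja4 from -3.82 to 2.33.

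The share of a gene in the summed TPM of its role gives its part of the RNA of the genes listed for that role. It is taken within a library, does not depend on the scale of that library and does not describe protein. There were 28 such comparisons, each tested with a two-sided exact permutation test and adjusted together. With 3 against 3 libraries no exact p can be under 0.1, so no share could be called between FGOs of the 2 genotypes. Prkaca, whose share of the 3 catalytic genes was 52.9% ± 2.83 (SD, n = 3) for control and 57.1% ± 6.62 (SD, n = 3) for K36M, had the largest difference in points, but its ranges overlapped. Adcy9 made up 28.1% ± 2.51 (SD, n = 3) of the summed TPM of 10 adenylyl cyclases in control and 24.3% ± 0.412 (SD, n = 3) in K36M FGOs, without overlap (exact p = 0.1, adjusted p = 0.2). Adcy5 had the highest level of the 10 in control FGOs, at 44.4 TPM. Adcy3 made up 6.72% ± 0.264 (SD, n = 3) in control and 5.52% ± 0.743 in K36M FGOs, also without overlap.

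Between the stages the shares of Pde3a, Gja4 and Gpr3 in control, and of Pde3a and Gja4 in K36M, passed the threshold. Leaving out an FGO library raises the smallest p the exact test can give, and none of these then passed (adjusted p 0.0778 or more), while the control differences stayed at -74.1 to -73.0 points for Gja4 and -29.2 to -27.6 for Pde3a. With only role genes averaging 1 TPM or more, the adjusted p of Pde3a and Gja4 was 0.05. Pde3a made up 39.4% ± 1.66 (SD, n = 3) of the summed TPM of 16 cAMP phosphodiesterases in control FGOs and 10.997% ± 5.89 (SD, n = 7) in control embryos (exact permutation p = 0.00833, adjusted p = 0.0467). In K36M the shares were 40.3% ± 0.308 (SD, n = 3) and 8.32% ± 7.17 (SD, n = 8), with an exact permutation p of 0.00606 and an adjusted p of 0.0467. Pde3b, the paralog of Pde3a, was looked at after the values were seen and held a mean TPM of 114 in control FGOs and 122 in control embryos (log2 fold change 0.07, 95% interval -0.54 to 0.68). In every control embryo Pde3b, at 90.1 TPM or more, was above the highest Pde3a value of 61.3 TPM, while in every control FGO library Pde3a, at 185 TPM or more, was above the highest Pde3b value of 116 TPM.

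In the gap junction list Gja4 made up 85.6% ± 1.14 (SD, n = 3) of the summed TPM of 8 genes in control FGOs and 12.0% ± 8.33 (SD, n = 7) in control embryos (exact permutation p = 0.00833, adjusted p = 0.0467). The K36M shares were 87.8% ± 1.54 (SD, n = 3) and 17.5% ± 14.7 (SD, n = 8), with an exact permutation p of 0.00606 and an adjusted p of 0.0467. Gja1, the connexin 43 gene, also chosen after its values were seen, was at a mean TPM of 24.1 in control FGOs and 70.1 in control embryos. Control embryos were above control FGOs without overlap, but the difference was not called (log2 fold change 1.49, adjusted p = 0.227 in limma). In K36M it ran from 16.2 to 32.0 TPM in FGOs and from 1.14 to 197 TPM (median 22.9) in embryos, which overlapped.

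Gpr3 made up 95.9% ± 1.72 (SD, n = 3) of the summed TPM of Gpr3, Gpr6 and Gpr12 in control FGOs and 99.2% to 100% in the 7 control embryos (exact permutation p = 0.00833, adjusted p = 0.0467). It made up 98.2% ± 0.310 (SD, n = 3) in K36M FGOs, above control FGOs without overlap (exact permutation p = 0.1, adjusted p = 0.2). Its lowest share, 30.9%, was in 1 K36M oocyte-derived embryo in which Gpr6 was at 15.7 TPM. Prkar2a made up 42.0% ± 3.49 (SD, n = 3) of the 4 PKA regulatory genes in control FGOs and 65.2% ± 11.2 (SD, n = 7) in control embryos, which missed the threshold after adjustment (exact permutation p = 0.0167, adjusted p = 0.0778). Prkaca made up 60.5% ± 11.2 (SD, n = 7) of the 3 catalytic genes in control embryos. In K36M oocyte-derived embryos the Prkaca share was 42.5% ± 16.6 (SD, n = 8), lower than in control embryos before adjustment only (exact permutation p = 0.0258, adjusted p = 0.0903), and Adcy9 showed the same (13.8% ± 6.63 against 27.5% ± 16.7, exact permutation p = 0.0347, adjusted p = 0.097). The Prkaca share was 20.1% and 14.0% in K36M replicates 3 and 8, and 43.1% to 58.8% in the others. Control embryos ran from 47.5% to 78.6%. The shares were not tested without these K36M replicates.

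**Figure D4:**
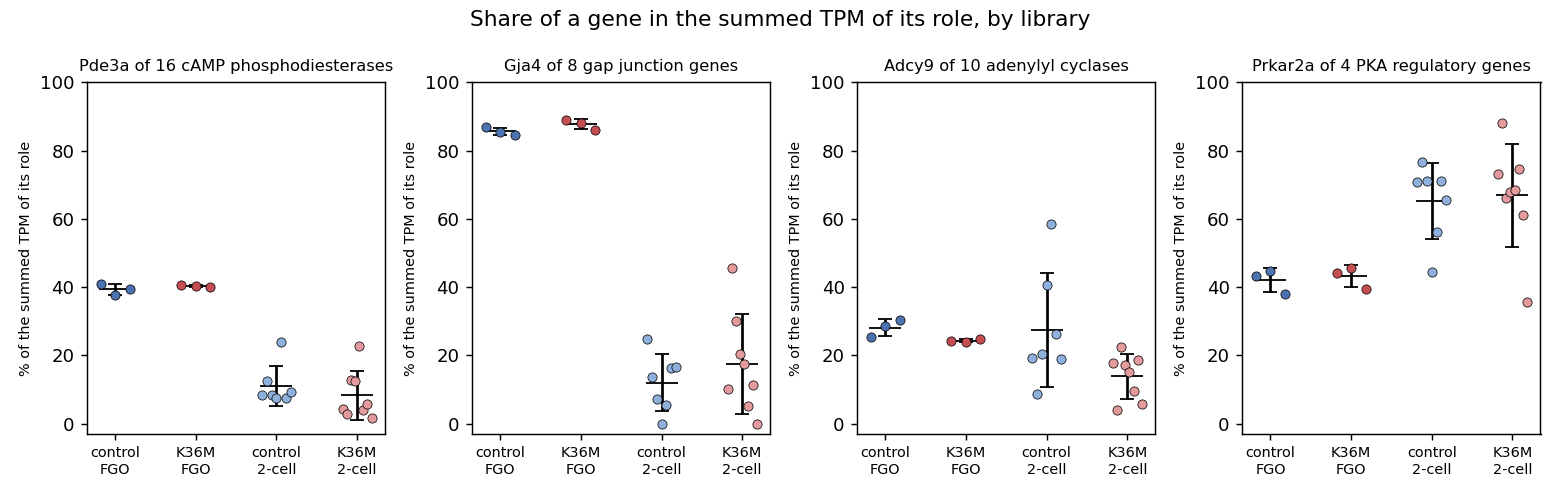
Share of Pde3a, Gja4, Adcy9 and Prkar2a in the summed TPM of their role (vertical axis, percent) in each library of the 4 groups (horizontal axis). Points are libraries, long bars means and error bars the SD. The Pde3a share is 37.7% to 40.97% in the 6 FGO libraries and at most 23.8% in the embryos, and the Gja4 share is at least 84.6% in the FGO libraries and at most 45.6% in the embryos.

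The rest of the pathway was described through 11 lists of 96 genes by role, of which 88 were not members. In K36M against control FGOs, 63 of these 88 were tested, none was called and 3 had an unadjusted p under 0.05 in limma, which is below the 10.5% of all genes. These were Pkig, which encodes an inhibitor of PKA (log2 fold change -0.51, adjusted p = 0.401), Akap11, a PKA anchor (0.45, adjusted p = 0.421) and Gnai2, an inhibitory G protein subunit (-0.20, adjusted p = 0.436). Pkig was at 34.4, 49.5 and 51.6 TPM in control and at 29.3, 31.3 and 32.3 TPM in K36M FGOs, without overlap. In the two-cell embryos 75 were tested, none was called and 6 had an unadjusted p under 0.05, near the 7.71% of all genes. The 3 with the smallest p were Gng5, a G protein gamma subunit (-3.08, adjusted p = 0.4), Prkar1b, a type I regulatory subunit of PKA (-1.95, adjusted p = 0.549), and Akap8, a nuclear PKA anchor (0.70, adjusted p = 0.566). Gng5 was at 0.98 to 92.2 TPM (median 29.6) in control embryos and at 0 in 4 of 8 K36M oocyte-derived embryos, with 8.98 TPM at most. Prkar1b was at 0 in 1 of 7 control and 6 of 8 K36M oocyte-derived embryos.

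Between the stages, 5 of the 73 tested non-members rose and 8 fell in control, and 5 rose and 14 fell in K36M. Over all genes, 13.4% were called higher and 13.2% lower in control, and 10.8% higher and 18.6% lower in K36M, so the counts of falls were near those of genes at large and the genes below are named as single results. The G protein list held the regulator Rgs2, which damps G protein signals and was the most abundant of its list in control FGOs at 456 TPM. Rgs2 fell by 4.67 on the log2 scale in control (adjusted p = 6.63e-06) and by 4.22 in K36M (adjusted p = 1.76e-05 in limma), from 446 TPM or more in every FGO library to at most 81.9 TPM in any embryo. Gnb1, a G protein beta subunit, rose in both genotypes (log2 fold change 1.51 in control and 1.48 in K36M). Gng5 fell in K36M (-3.51, adjusted p = 0.00781).

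Among cyclases Adcy1 fell in control (log2 fold change -2.55, adjusted p = 0.0261 in limma), and no cyclase passed in K36M. In the cyclic GMP list, Pde6d fell in both genotypes (-3.22 and -4.34) and the natriuretic peptide receptor Npr1 passed as higher in both. Npr1 was at 0 in 2 of 3 FGO libraries of each genotype and at a mean TPM of 6.93 and 4.20 in control and K36M oocyte-derived embryos, so it entered the test through the embryos. Despite its name Pde6d encodes a carrier of lipid-modified proteins rather than a catalytic phosphodiesterase. Of the cAMP phosphodiesterases, Pde7b fell in control (-3.89), with 5 of 7 embryos at 0, and Pde4c passed as higher, from at most 0.475 TPM in control FGOs to 2.22 TPM or more in control embryos, through which it too entered the test. In K36M, Pde1b (-3.04) and Pde8b (-2.75) fell, the latter with 4 of 8 embryos at 0. At most 2 non-members per role were named for each genotype, so a gene named in 1 genotype need not differ between them. Pde7b was at 11.1 to 15.8 TPM in K36M FGOs and at 0 in 4 of 8 K36M oocyte-derived embryos, but at 23.6 TPM in another. Pde1b was at 69.6 TPM or more in control FGOs and at most 26.4 TPM in control embryos. The channel gene Panx1 fell in K36M (-3.91, adjusted p = 0.00834), with 6 of 8 embryos at 0.

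Of the PKA subunits other than the 2 members, none passed in control, and in K36M the catalytic Prkacb (log2 fold change -2.60) and the regulatory Prkar1a (-2.96) and Prkar1b (-2.46) fell. Of the 8 K36M oocyte-derived embryos, Prkar1b was at 0 in 6, Prkacb in 2 and Prkar1a in 1. A fold against values at 0 depends on the 1 added to each TPM. The interaction, which tests whether the stage difference is unlike in the genotypes, called none of the 3, and Prkar1b had the smallest unadjusted p of them (0.0278, adjusted p = 0.99994 in limma). Over the 73 non-members tested, the interaction had an unadjusted p under 0.05 in 2. Among PKA anchors, Akap8 rose by 3.49 in control (adjusted p = 2.98e-08) and by 4.08 in K36M (adjusted p = 1.38e-09 in limma), from 29.4 to 43.8 TPM over all FGO libraries to 176 TPM or more in every embryo. Akap4, best known from the sperm tail, passed as lower in both. It was low already in FGOs (mean TPM 3.08 in control and 4.22 in K36M), through which it entered the test. Akap4 was listed at 0 in 5 of 7 control and all 8 K36M oocyte-derived embryos, so no fold is given. The most abundant anchor in control FGOs was Akap12 at 539 TPM. In the list of cAMP effectors and PKA targets, the cAMP-gated exchange factor Rapgef3 fell (-2.17) and the CREB family gene Atf1 rose (1.30) in K36M. Rapgef3 was at 3.98 to 9.16 TPM in K36M FGOs and at 0 in 5 of 8 K36M oocyte-derived embryos, but at 25.4 TPM in replicate 8, above every FGO library. No gene of this list was called in control. There Rapgef3 was also lower without overlap, from 4.23 to 6.27 TPM in FGOs to at most 4.05 TPM in embryos. The mean TPM of Atf1 was 122 in control FGOs and 245 in control embryos. In the same list Wee2, the oocyte kinase that PKA activates to inhibit CDK1, was the most abundant at 529 TPM in control FGOs.

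**Figure D5:**
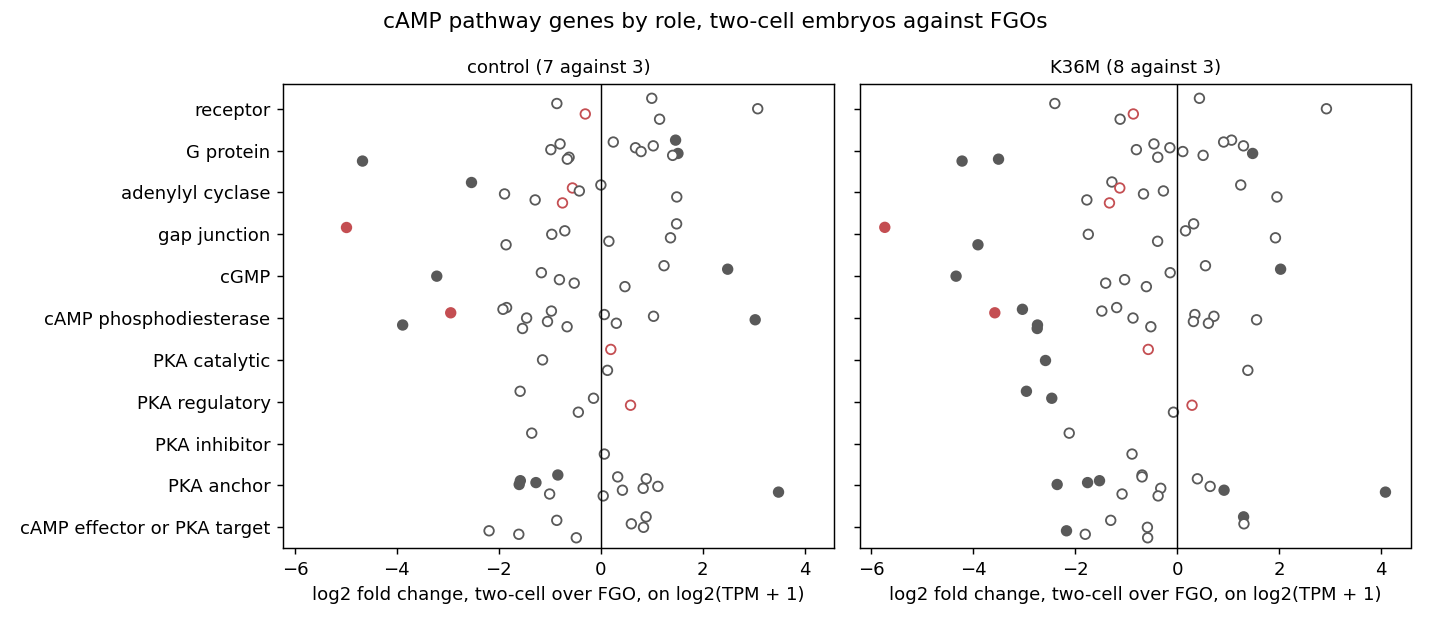
Log2 fold change of two-cell embryos over FGOs (horizontal axis, on log2(TPM + 1)) for the tested genes of 11 cAMP pathway roles (vertical axis) in control (left) and K36M (right). Each point is 1 gene, red for the members and grey for the others, filled where the limma adjusted p is under 0.05. Gja4 lies farthest left in both panels (-4.99 and -5.74), and Akap8 farthest right (3.49 and 4.08).

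Across the 21 libraries, the genes whose log2(TPM + 1) was most like that of Pde3a among 17357 others were Ern1 (Pearson r = 0.958), D6Ertd527e (0.957) and Tbc1d1 (0.944). Their mean TPM was 1139, 2354 and 234 in control FGOs and 203, 348 and 95.4 in control embryos. These correlations run over libraries that share a stage, so the step between FGOs and embryos is a large part of them. Gpr3 had less alike companions, namely Ppp4r1 (r = 0.836), 1700030J22Rik (0.833) and Cenpl (0.825), whose mean TPM in control FGOs was 27.99, 41.3 and 11.6.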

How the data were processed

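RNA libraries of FGOs (3 control, 3 K36M) and of single late two-cell embryos (8 and 8) were grouped by their labels. Control two-cell replicate 4 was left out, following the study. The authors trimmed reads with Trim Galore, mapped them to mm10 with HISAT2, removed ribosomal RNA reads with BEDTools, counted genes with featureCounts and deposited TPM, which sums to 1000000 in each of the 22 libraries. Gene annotation, gene lengths and strand setting are not given in the sources used here. The study lists total reads per library, but the reads behind each TPM value are not held in the table, so no count test was run and no interval that needs counts is given.

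limma 3.58.1 (R 4.3.3) was fitted to log2(TPM + 1) with eBayes and a trend, for genes averaging 1 TPM or more, and p-values were adjusted by Benjamini-Hochberg over all genes tested, with a threshold of 0.05. FGOs and embryos were fitted apart, and stage and interaction contrasts came from 1 fit of 21 libraries. Shares were compared by two-sided exact permutation tests. All 96 pathway symbols were found, 3 of them under newer names. Named beside the 8 members were the most abundant gene of each role, the list genes with the smallest p per K36M comparison (3 where none passed), the 2 largest changes per role among those past the threshold per stage comparison, and the 3 genes most like Gpr3 and Pde3a. The members and lists were chosen with earlier results of these data known. Scripts were tested on simulated data. The other steps used scipy 1.17.1, pandas 2.3.3, numpy 2.4.6 and matplotlib 3.10.9 under Python 3.11.15. Alternatives were a pseudocount of 0.1, no filter, a mean TPM of at least 5, quantile and median-of-ratios scaling, no trend, a block for the replicate number, array weights, each FGO library left out, and control two-cell replicate 4 added. The other assays of the series were not analysed here.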

Additional observations from a re-analysis of the deposited data

Results flagged for a closer look

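Within the two-cell groups, 29 sets of values (levels of a gene, or shares of its role) were searched for a library that stood far from the rest by Dixon's test. Chance flags about 1 in 20 sets, and 7 were found. In 3 of the 7, the Gpr12 level and both Gpr3 shares, all other embryos sat at exactly 0 TPM or 100%, so that any other value stands apart, and 2 of these rest on the same Gpr12 value. Gpr3 was lowest in control replicate 8 (23.9 TPM), Adcy9 in K36M replicate 2 (2.09 TPM) and Gja4 in control replicate 5 (0 TPM). Gpr12 was above 0 in control replicate 1 only (0.544 TPM), which also set the Gpr3 share of its receptor family apart in that embryo (99.2%). The Gpr3 share was 30.9% in K36M replicate 2, where Gpr6 was at 15.7 TPM, and the Pde3a share of its phosphodiesterases was 23.8% in control replicate 6.

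Control embryo 4 entered no main comparison. In it, Adcy3 (29.5 TPM) and Gja4 (50.04 TPM) were above all 7 other control embryos. The causes were not tested.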

How the results depend on the processing

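Among the counts of members called, 1 changed by over 1.5 times: with array weights 4 members were called between control embryos and control FGOs (Adcy9 and Prkar2a were added), where the calls over all genes went from 4615 to 9730 (from 5094 to 8527 in K36M). Array weights also turned the K36M difference in embryos to 0.0475 for Gja4 and 0.0168 for Prkaca, and the control stage difference of Prkaca to -0.21, which was -0.11 with median-of-ratios scaling. Quantile normalization turned the interaction of Adcy3 to 0.23. The cause was not tested, and none of these reversed values was past the threshold. No member of the K36M comparisons was called under any alternative. Over all genes, the K36M calls in FGOs went from 1 to 300 without K36M replicate 1 (0 to 2 without any other FGO library), those in embryos from 0 to 5 with no trend and those of the interaction from 0 to 13 with no filter. The control stage calls went to between 2844 and 2877 without control FGO replicate 1, 2 or 3. The stage falls of Gja4 and Pde3a stayed past the threshold under all alternatives run, and with no filter Gpr12 was called lower as well.

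With role genes of a mean TPM of at least 1 only, where Gpr3 is alone in its role and has no share, the stage differences in share (embryos minus FGOs, percentage points) came to an adjusted p of 0.05: -73.7 and -70.3 for Gja4 and -28.6 and -32.3 for Pde3a in control and K36M. Leaving out each FGO library in turn, which leaves fewer samples, took these shares above 0.05, at -74.1 to -73.0 and -71.2 to -69.7 for Gja4, -29.2 to -27.6 and -32.2 to -31.9 for Pde3a, and 3.03 to 4.69 for Gpr3 in control. It turned the control stage difference of the Adcy9 share (-1.99 to 0.485, without control replicate 3) and the K36M difference in FGOs of the Prkar2a share (-0.864 to 2.89, without control replicate 3 or K36M replicate 2).

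The replicate block, tried because the labels number the libraries alike, called 0 members in the K36M comparisons and 2 in each stage comparison (in the latter with the number shared by the 4 groups, an alternative chosen after the data were seen), as without it. Same-numbered libraries share only a number, since their deviations correlated at 0.03, 0.01 and 0.10 in FGOs and at -0.10 to 0.10 in embryos. Leaving out K36M embryos 2 and 8 was also added after the data were seen. The reads behind single TPM values are not known, so no counting error is given for low values such as those of Gpr12, and the study lists fewer total reads for every embryo than for any FGO library.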
